A study of Homo sapiens with 6 samples.

Results

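Galectins and the enzymes that branch N-glycans were examined in Panc-1 cells treated with TGFβ and in untreated Panc-1 cells. The 10 genes were 4 galectins (LGALS1, LGALS3, LGALS8 and LGALS9), the galectin-binding glycoprotein LGALS3BP, and 5 branching enzymes (MGAT1, MGAT2, MGAT4A, MGAT4B and MGAT5). They were chosen by name, as every probe set that the platform annotation assigns to a single one of these genes, which gave 23 of 54675 probe sets and 10 of 19777 genes. Of these, 16 probe sets of 9 genes had a mean signal of at least 100 (6.64 on the log2 scale) in at least 1 group and were tested. The only probe set of LGALS9 lay below that limit.

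Panc-1 is an established human line from a pancreatic ductal carcinoma. All 6 samples are of this line, and 3 came from untreated cells while 3 came from cells given porcine TGFβ1 at 5 ng/mL for 48 h, after 24 h without serum. The labels state the serum starvation on the untreated arrays too. The study's methods give the dose as 5 nM, and which is right is not settled here. The experiment was done 3 times according to the methods, but nothing ties an array to a separate culture, so p-values measure the spread between these arrays, which may be technical. A single line is a model of 1 tumour only.

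N-glycans are sugar trees attached to asparagine residues of proteins that pass through the secretory pathway. In the Golgi, MGAT enzymes add N-acetylglucosamine to the trimmed mannose core, each starting a branch, and galactose is then added to the branches. Galectins are small lectins that bind such galactose-bearing branches, crosslink glycoproteins at the cell surface into a lattice, and also act in the cytosol. TGFβ induces epithelial-mesenchymal transition, and its receptors are among the glycoproteins that such a lattice is known to retain.

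The array medians were 5.14 to 5.21 on the log2 scale, correlations within a group were at least 0.995, and those between groups were 0.954 to 0.959, across probe sets, which are not independent. As a check of the label, 4 of 5 epithelial and ductal markers tested fell (KRT8, KRT18, EPCAM and CDH1), beside 31% of all genes. KRT8 lay at 11.4 in untreated and 9.27 in TGFβ arrays, and EPCAM at 8.62 and 7.82. CDH1, at 7.58 and 5.56, reached the limit only in the untreated group, so it could enter only as lower. The study also lists CDH1 as decreased from these arrays, so its fall is not independent evidence. The remaining marker, the ductal keratin KRT7, did not pass and had the higher mean with TGFβ (6.77 and 7.01, limma adjusted p = 0.0569). KRT19, another ductal keratin, was below the limit in both groups (5.45 and 4.19 on its brighter probe set). Of 16 markers of leukocytes, endothelium, fibroblasts and pancreatic acini and islets, 13 had probe sets, and 0 of those 30 probe sets reached the limit. Their summed linear signal was 558 to 580 on untreated arrays and 558 to 602 on TGFβ arrays. With 3 arrays a group, their number limits the precision.

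With TGFβ, LGALS8, LGALS3BP, MGAT4A and MGAT5 fell and LGALS3 rose. By limma with Benjamini-Hochberg adjustment over all genes, 5 of the 9 tested genes changed (55.6%), beside 58.7% of all genes tested. In the lower direction the count was 4, beside 31% of all genes, and in the higher direction it was 1, beside 27.7%. That lean depended on the filter. With the signal limit raised to 200, 4 of 7 tested members changed, 2 higher and 2 lower, beside 62% of all genes changed. The fall reached 1.5-fold for 3 of the 9 genes, beside 7.22% of all genes, and a change in either direction reached it for the same 3, beside 13.4%. Of these, LGALS3BP passed the filter only through its untreated arrays, so it could enter only as lower, and the study had picked it from these arrays. MGAT4A had a TGFβ mean of 6.68, near the limit of 6.64. Neither was tested under the stricter filter, so the count is a description. The arrays of the groups did not overlap for 6 of the 9, beside 68.2% of all genes. The median log2 fold change was -0.16 over the 9 genes and -0.013 over all genes. In bulk RNA, fewer cells carrying a message and less message per cell cannot be told apart.

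**Figure D1:**
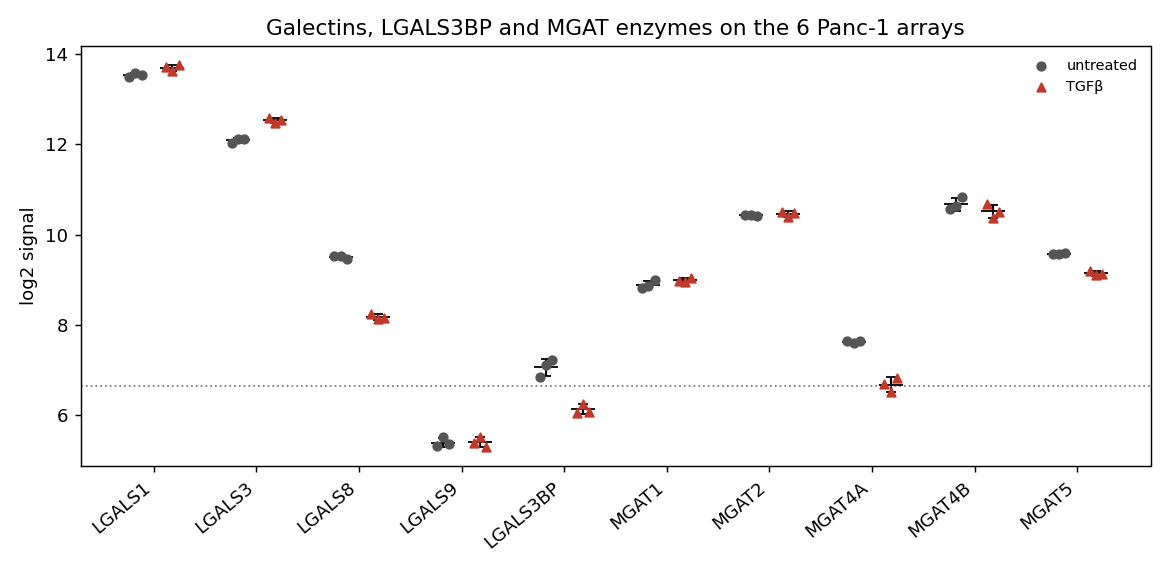
Log2 signal of the 10 genes on each of the 6 arrays, with circles for untreated and triangles for TGFβ arrays, black marks for mean ± SD (n = 3) and a dotted line at the limit of 6.64. LGALS8, LGALS3BP, MGAT4A and MGAT5 lie lower and LGALS3 lies higher on all 3 TGFβ arrays, and LGALS9 lies under the line in both groups.

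LGALS8 (Entrez 3964) encodes galectin-8, a galectin with a pair of sugar-binding domains, which among other things binds sugars exposed on damaged vesicles and recruits the autophagy receptor CALCOCO2 to them. Its log2 signal, averaged over its 6 probe sets, was 9.53, 9.53 and 9.47 on the untreated arrays and 8.24, 8.13 and 8.16 on the TGFβ arrays. Every TGFβ array lay below every untreated array. The mean went from 9.51 ± 0.034 to 8.18 ± 0.059 (SD, n = 3 per group), a log2 fold change of -1.33 (SE 0.051, 95% confidence interval -1.45 to -1.20), 2.51-fold lower (limma adjusted p = 1.40e-05). Of all member genes this was the largest change. Taking only the brightest probe set gave -0.89.

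The size of the LGALS8 fall depended on the probe set. All 6 fell past the threshold, by 1.52-fold to 4.27-fold. Probe set 208935_s_at read 9.47, 9.51 and 9.66 on untreated and 7.58, 7.28 and 7.50 on TGFβ arrays, a log2 fold change of -2.09 (SE 0.080, adjusted p = 2.07e-05). Probe set 208933_s_at read 9.96, 9.92 and 9.92 on untreated and 7.91, 7.73 and 7.89 on TGFβ arrays, a log2 fold change of -2.09 as well (SE 0.060). These showed the largest falls of the 6, and they differed from each other by 0.0031 (SE 0.083, adjusted p = 0.984).

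The other 4 probe sets of LGALS8 fell less, and their groups did not overlap either. Probe set 208936_x_at went from 10.59, 10.61 and 10.58 to 9.44, 9.32 and 9.30, a log2 fold change of -1.24 (SE 0.059). Probe set 208934_s_at went from 11.03, 11.08 and 10.97 to 10.20, 10.13 and 10.07, a log2 fold change of -0.89 (SE 0.056). Probe set 210731_s_at is nearer the limit. It went from 7.22, 7.03 and 6.72 to 5.94, 6.04 and 5.86, a log2 fold change of -1.05 (SE 0.087), with the TGFβ arrays all under the limit. This probe set passed the filter only through its untreated arrays, so it could enter only as lower. Probe set 210732_s_at fell least of the 6, from 8.88, 9.01 and 8.94 to 8.39, 8.27 and 8.35, a log2 fold change of -0.60 (SE 0.067).

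**Figure D2:**
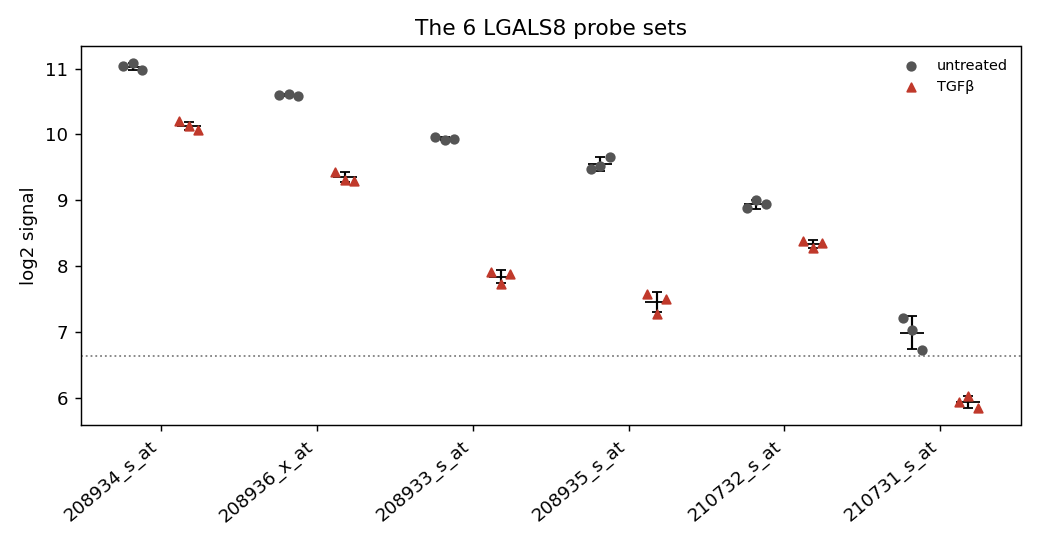
Log2 signal of the 6 LGALS8 probe sets on the 6 arrays, circles for untreated and triangles for TGFβ arrays. All 6 lie lower with TGFβ, with the widest gaps at 208933_s_at and 208935_s_at (-2.09 each) and the narrowest at 210732_s_at (-0.60).

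Whether probe sets of a gene moved unequally was tested on the difference between them on each array. Of the 15 pairs of LGALS8 probe sets, 12 moved unequally by limma, beside 29.9% of 10592 such pairs of all genes, and these pairs share probe sets. The largest difference, 1.49 (SE 0.074, adjusted p = 0.000442), was between 208935_s_at and 210732_s_at. The 3 pairs that did not pass were 208933_s_at with 208935_s_at, 208934_s_at with 210731_s_at (0.15, SE 0.11, adjusted p = 0.328) and 208936_x_at with 210731_s_at (-0.20, SE 0.11, adjusted p = 0.240). Among the 48 genes with at least 6 tested probe sets the median range of log2 fold changes was 0.64, and no gene had a wider range than LGALS8. That ranking was looked up for LGALS8 and is a description. The positions of the probe sets on the LGALS8 transcripts were not used here, and names ending in _s_at or _x_at mark probe sets that may read several transcripts or related sequences. The difference between the 3′ and 5′ probe sets of ACTB, a measure of RNA integrity and labelling, was 0.554 ± 0.031 on untreated and 0.335 ± 0.060 on TGFβ arrays (log2, SD, n = 3), and that of GAPDH was -0.0096 ± 0.0096 and -0.028 ± 0.023. Their part in the unequal changes was not tested.

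The promoters of LGALS8 are shown because it had the largest change and several start sites. The sequences are from RefSeq (GRCh38.p14) and run from 250 bases before to 50 after a start site, 5′ to 3′ on the gene's strand, with E-boxes (CAGGTG or CACCTG), the site that ZEB and SNAI repressors are known to read, and SMAD boxes (CAGAC or GTCTG) in capitals. Both strands were searched, and no hit of one motif overlapped the other.
LGALS8, chr1:236517964-236518263, plus strand: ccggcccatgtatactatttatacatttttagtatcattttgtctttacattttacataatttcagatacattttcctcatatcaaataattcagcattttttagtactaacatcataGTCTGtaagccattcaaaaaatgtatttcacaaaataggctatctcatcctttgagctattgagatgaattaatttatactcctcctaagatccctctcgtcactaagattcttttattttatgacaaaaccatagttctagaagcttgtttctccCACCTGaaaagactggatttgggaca
LGALS8, chr1:236523348-236523647, plus strand: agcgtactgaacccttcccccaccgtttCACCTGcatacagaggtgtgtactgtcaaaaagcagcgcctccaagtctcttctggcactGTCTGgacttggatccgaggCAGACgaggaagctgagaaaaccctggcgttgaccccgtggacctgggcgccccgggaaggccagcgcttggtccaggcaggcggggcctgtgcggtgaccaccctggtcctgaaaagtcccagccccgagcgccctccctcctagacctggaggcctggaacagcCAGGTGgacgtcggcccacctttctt
LGALS8, chr1:236523732-236524031, plus strand: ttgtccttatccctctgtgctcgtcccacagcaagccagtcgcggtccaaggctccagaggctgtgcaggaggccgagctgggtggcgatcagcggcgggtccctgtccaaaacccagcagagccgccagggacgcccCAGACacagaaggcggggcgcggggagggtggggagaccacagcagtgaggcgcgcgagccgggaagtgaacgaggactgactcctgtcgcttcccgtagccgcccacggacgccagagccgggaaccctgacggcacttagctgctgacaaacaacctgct

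In these windows the first and the second hold E-boxes, at 25 bases after the start site in each and also 222 before it in the second, while all of them hold SMAD boxes. Promoters were found for 8 of the 10 genes (17 windows), all but LGALS1 and MGAT4A. An E-box was in 7 of the 17 windows, beside 20.6% of 35116 promoters of the same length, and a SMAD box in 10 of 17, beside 45.3%. The windows with an E-box belong to LGALS8, LGALS3BP and MGAT5, which fell, and to MGAT1 and MGAT2, which did not pass the test. A match of letters shows no binding, and windows of 1 gene are not independent.

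LGALS3 (Entrez 3958) encodes galectin-3, which forms oligomers that crosslink glycoproteins. It was the member that rose. Its log2 signal was 12.02, 12.12 and 12.13 on untreated and 12.58, 12.46 and 12.54 on TGFβ arrays, with no overlap. The log2 fold change was 0.44 (SE 0.060), 1.36-fold higher (limma adjusted p = 0.00138). A second probe set, 1557197_a_at, was below the limit (3.39 and 3.44), and averaging it in without the filter gave 0.24. The methods' t-test with Benjamini-Hochberg adjustment gave 0.0652. Its promoter, shown because it belongs to the member that rose, holds a SMAD box 134 bases before the start site and no E-box.
LGALS3, chr14:55129002-55129301, plus strand: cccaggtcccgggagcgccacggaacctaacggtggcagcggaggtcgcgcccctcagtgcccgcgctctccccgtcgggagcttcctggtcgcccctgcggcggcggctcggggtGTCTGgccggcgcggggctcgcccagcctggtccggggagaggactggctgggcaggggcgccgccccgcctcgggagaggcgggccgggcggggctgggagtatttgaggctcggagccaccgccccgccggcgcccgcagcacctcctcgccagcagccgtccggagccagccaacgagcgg

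LGALS1 (Entrez 3956) encodes galectin-1, a secreted galectin that acts as a dimer. Its log2 signal was 13.49, 13.57 and 13.54 on untreated and 13.70, 13.61 and 13.74 on TGFβ arrays. The groups did not overlap, but the difference of 0.15 (SE 0.057, 95% confidence interval 0.014 to 0.29) did not pass after adjustment (limma adjusted p = 0.0593). It passed with no replicate block (0.0294), with a stricter filter on signal (0.0491) and with a variance trend (0.00569), and its highest adjusted p was 0.266, without replicate 3.

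LGALS9 encodes galectin-9, another galectin with paired sugar-binding domains. Its probe set 203236_s_at read 5.31, 5.51 and 5.37 on untreated and 5.40, 5.51 and 5.30 on TGFβ arrays, below the limit on all 6. The groups overlapped, and without the filter the log2 fold change was 0.0061 (adjusted p = 0.974). LGALS9 has near-identical copies in the genome, LGALS9B and LGALS9C, and which of them the signal came from is uncertain.

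LGALS3BP (Entrez 3959) encodes a secreted, heavily glycosylated protein that binds galectins. It is among the genes the study picked from these arrays, so its fall is not independent evidence of a direction. Its log2 signal was 6.86, 7.11 and 7.22 on untreated and 6.05, 6.26 and 6.08 on TGFβ arrays, with no overlap and every TGFβ array under the limit. The log2 fold change was -0.93 (SE 0.076, 95% confidence interval -1.12 to -0.75), 1.91-fold lower (limma adjusted p = 0.000195). The methods' t-test with Benjamini-Hochberg adjustment gave 0.0504, and the gene was not tested under the stricter filter. Its promoter holds an E-box 71 bases before the start site and SMAD boxes 188 before and 33 after it.
LGALS3BP, chr17:78979874-78980173, minus strand: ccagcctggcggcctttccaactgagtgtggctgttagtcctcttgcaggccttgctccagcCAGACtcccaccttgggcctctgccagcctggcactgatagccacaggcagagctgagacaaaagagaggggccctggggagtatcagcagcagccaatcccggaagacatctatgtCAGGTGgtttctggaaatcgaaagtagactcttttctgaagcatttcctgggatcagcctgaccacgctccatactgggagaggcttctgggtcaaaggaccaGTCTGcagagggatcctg

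Among the branching enzymes MGAT4A and MGAT5 fell, and MGAT1, MGAT2 and MGAT4B did not pass the test. MGAT1 (Entrez 4245) starts the first branch, without which no complex N-glycan forms. Its log2 signal was 8.83, 8.86 and 8.99 on untreated and 8.98, 8.95 and 9.05 on TGFβ arrays, and the groups overlapped. The difference was 0.10 (SE 0.050, 95% confidence interval -0.018 to 0.22, limma adjusted p = 0.123).

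MGAT2 (Entrez 4247) adds the second branch. Its log2 signal was 10.42, 10.43 and 10.42 on untreated and 10.50, 10.38 and 10.47 on TGFβ arrays, which overlapped. The difference was 0.028 (SE 0.052, 95% confidence interval -0.10 to 0.15, limma adjusted p = 0.674). Its tested probe sets gave -0.083 (203102_s_at, adjusted p = 0.313) and 0.14 (211061_s_at, adjusted p = 0.0694), and the difference between them did not pass either (-0.22, adjusted p = 0.0670). Another probe set, 203101_s_at, lay at 6.22 in untreated and 6.56 in TGFβ arrays, just under the limit.

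MGAT4A (Entrez 11320) is one of a pair of enzymes that add the branch on the arm MGAT1 began. Its log2 signal on probe set 226039_at was 7.63, 7.60 and 7.65 on untreated and 6.70, 6.50 and 6.83 on TGFβ arrays, with no overlap. The log2 fold change was -0.95 (SE 0.066, 95% confidence interval -1.11 to -0.79), 1.93-fold lower (limma adjusted p = 0.000108). Its other 3 probe sets were below the limit and had lower means with TGFβ, at 4.30 and 3.94 for 219797_at, 4.95 and 4.61 for 231283_at, and 3.55 and 3.46 for 1569136_at. Averaging all 4 without the filter gave -0.44, and the gene was not tested under the stricter filter.

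MGAT4B (Entrez 11282) is the partner of MGAT4A in that step. Its log2 signal was 10.56, 10.63 and 10.82 on untreated and 10.67, 10.38 and 10.49 on TGFβ arrays, which overlapped. The difference was -0.16 (SE 0.092, 95% confidence interval -0.38 to 0.069, limma adjusted p = 0.193). It passed without replicate 1 (-0.29, adjusted p = 0.00252) and its highest adjusted p was 0.626, without replicate 3. The difference between the changes of MGAT4A and MGAT4B was not tested.

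MGAT5 (Entrez 4249) adds the branch on the other arm, which is often extended into the poly-N-acetyllactosamine that galectin-3 binds. Its log2 signal on probe set 212098_at was 9.56, 9.57 and 9.59 on untreated and 9.19, 9.10 and 9.12 on TGFβ arrays, with no overlap. The log2 fold change was -0.43 (SE 0.051, 95% confidence interval -0.56 to -0.31), 1.35-fold lower (limma adjusted p = 0.000781). A second probe set, 206720_at, was below the limit (4.15 and 4.39). Averaging it in without the filter gave -0.096 (adjusted p = 0.441), so the call rests on 212098_at.

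**Figure D3:**
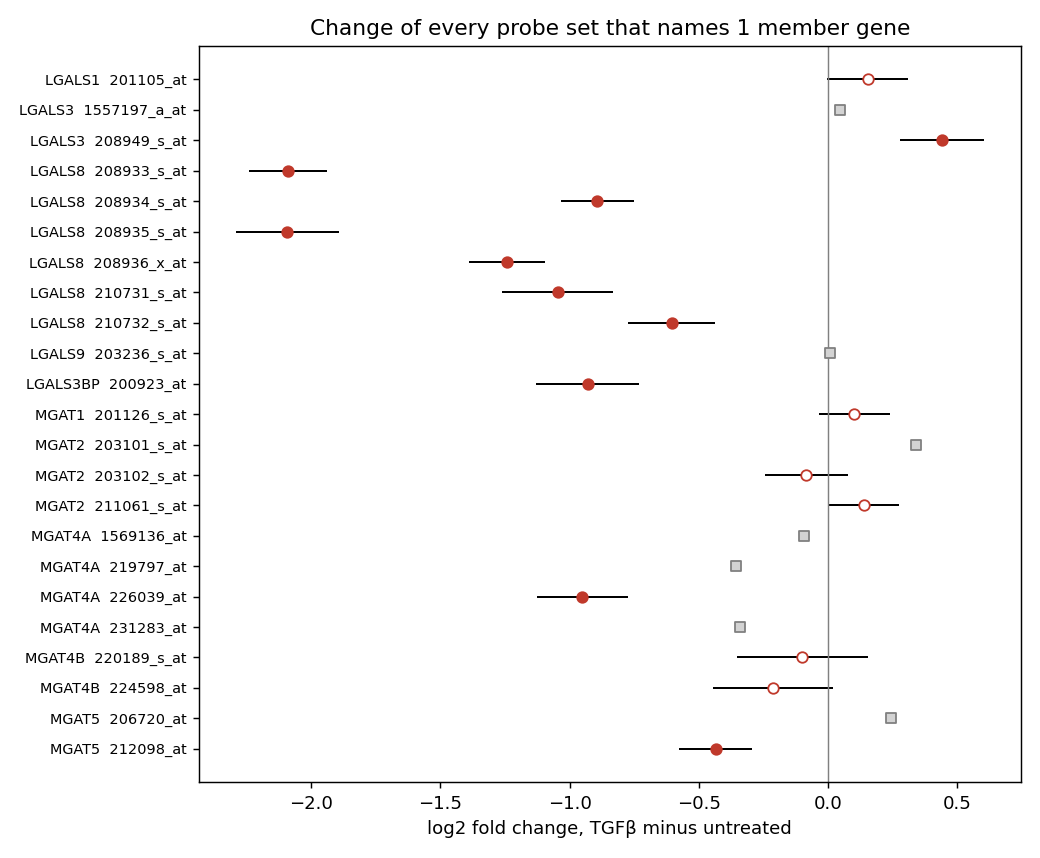
Log2 fold change (TGFβ minus untreated) of the 23 probe sets, with 95% confidence intervals for the 16 tested, filled where the adjusted p was under 0.05, and grey squares for the 7 below the limit, which have no interval. The 6 LGALS8 probe sets lie between -2.09 and -0.60, LGALS3BP (-0.93) and the tested MGAT4A probe set (-0.95) lie within that range, and LGALS3 (0.44) is the filled point on the positive side.

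Counted by probe set, 10 of the 16 changed, 9 lower and 1 higher (62.5%), beside 55.1% of all probe sets tested, 28.5% lower and 26.6% higher. The groups did not overlap for 12 of the 16, beside 65.5% of all probe sets. Of those 9, 6 belong to LGALS8, so the count leans on 1 gene. Probe set 210731_s_at of LGALS8 (6.99 to 5.95) and that of LGALS3BP (7.06 to 6.13) passed the filter only through their untreated arrays. They could enter only as lower, so the count of lower probe sets is a description. The 7 probe sets below the limit had group means of 3.39 to 6.56, and 3 of them (203101_s_at, 219797_at and 231283_at) passed when the filter was left out.

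Of the 13 other galectin genes listed, 7 had probe sets and only LGALSL, a galectin-like gene that lacks the sugar-binding site, reached the limit. Its probe sets moved oppositely, 219998_at from 7.33 to 7.67 (0.33, SE 0.082, adjusted p = 0.0153) and 226188_at from 9.63 to 9.39 (-0.24, SE 0.064, adjusted p = 0.0196), and their mean did not pass (0.046, adjusted p = 0.587). The other 6 had means of 4.08 to 4.57 and did not pass without the filter. Of 4 further MGAT genes listed, MGAT5B alone reached the limit, at 6.66 and 6.72 (0.064, SE 0.11, limma adjusted p = 0.643). MGAT3, the enzyme of the bisecting N-acetylglucosamine, MGAT4C and MGAT4D did not.

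Over all pathway lists, 33 of 57 genes tested changed, 22 higher and 11 lower, beside 58.7% of all genes, 27.7% higher and 31% lower. These lists hold steps around branching, and also other galectins, galectin-binding glycoproteins and galectin partners inside the cell. By the methods' t-test with Benjamini-Hochberg adjustment 11 of the 57 passed, beside 23.9% of all genes. The lists were chosen with earlier results of these data known. In the supply of UDP-GlcNAc, the sugar donor of all MGAT enzymes, 3 of 5 genes rose and 1 fell (median 0.42). UAP1, which makes the donor, rose by 1.54 (SE 0.068), the kinase NAGK by 0.55 and GNPNAT1 by 0.42, on the log2 scale. The gene that fell, named after its value was seen, was the Golgi transporter SLC35A3, at -0.33, which with the highest probe set per gene was -0.13 and did not pass (adjusted p = 0.120). In the transfer of the glycan to protein, 2 of 11 rose and 9 did not pass (median 0.094), with the catalytic subunit STT3A (0.17) and OSTC (0.16) losing the call under several alternatives. In trimming, 2 of 8 rose and 2 fell (median -0.010), with MOGS, the first glucosidase, at 0.57 (SE 0.063, limma adjusted p = 0.000614) and the mannosidase MAN1B1 at 0.34. The genes that fell were the mannosidases MAN1A2, at -0.20 (-0.56 with the highest probe set per gene and -0.081 without the filter), and MAN2A2, at -0.17 and named after its value was seen, and each lost the call under 5 alternatives, leaving out replicate 2 or replicate 3 among them.

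In the list of branch extension and capping, which also holds the core fucosyltransferase FUT8, 7 of 11 genes rose and 2 fell (median 0.27). So 81.8% changed, beside 58.7% of all genes. ST6GAL1, the sialyltransferase that caps galactose, rose by 0.76 (SE 0.058, 0.32 without the filter on low signal) and the galactosyltransferase B4GALT5 by 0.68 (SE 0.053). FUT8, which adds the core fucose, fell by 0.51 (SE 0.049). Of the 6 B4GALT genes, singled out after their values were seen, 5 rose, beside 27.7% of all genes, and B4GALT6 fell, by 0.20 on the log2 scale. The call of B4GALT6 was lost under 5 alternatives (no filter on low signal, median centring, without replicate 2, without replicate 3 and the methods' t-test). Of those that rose, B4GALT1, B4GALT2 and B4GALT4 lost the call by the methods' t-test with Benjamini-Hochberg adjustment. B4GALT4 also lost it without replicate 2, and B4GALT3 without the filter (limma adjusted p = 0.110). None of the 3 probe sets of B4GALT6 passed on its own (adjusted p = 0.0513 to 0.0649).

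Among 16 glycoproteins that galectins are known to bind, 6 rose and 5 fell (median -0.061), so 68.8% changed, beside 58.7% of all genes, which sets them little apart. The adhesion molecule MCAM rose by 1.33 (SE 0.095, 0.70 without the filter) and the integrin ITGA3 by 1.07 (SE 0.083), while the laminin chain LAMA5 fell by 0.90 (SE 0.098). Among 4 partners of galectins inside the cell, 2 rose and 1 fell (median 0.080), a count too small to read against the 58.7%. TRIM16, a ubiquitin ligase that works with galectin-3, had a log2 fold change of 0.43 (SE 0.064), and GEMIN4 had 0.21, a call lost under several alternatives. CALCOCO2, the autophagy receptor that galectin-8 recruits, fell by 0.34 (SE 0.049), with -0.19 when the filter was left out.

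**Figure D4:**
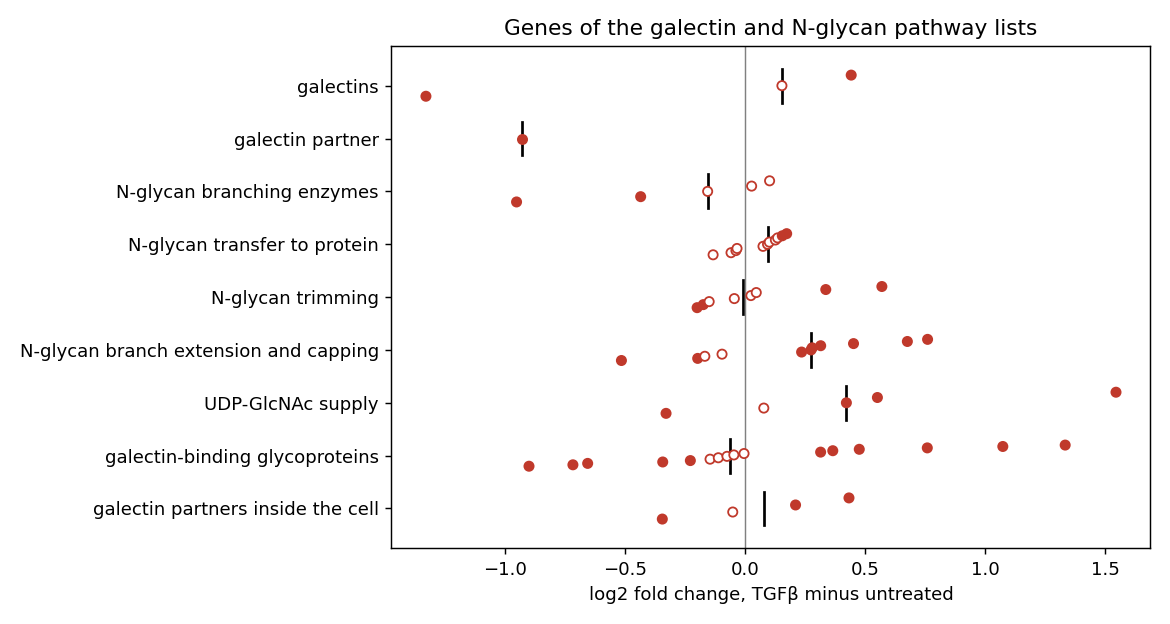
Log2 fold change (TGFβ minus untreated) of each tested gene, grouped by list, filled where the limma adjusted p was under 0.05, with black bars at list medians. The medians of UDP-GlcNAc supply (0.42) and of branch extension and capping (0.27) are the highest of the pathway lists.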

How the data were processed

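RNA of 6 Panc-1 samples, 3 untreated and 3 treated with TGFβ, was measured on Affymetrix U133 Plus 2.0 arrays. The authors deposited log2 values, 1 per probe set and array. The unit was read from the values (2.89 to 14.8), and the software and any normalization between arrays are not given in the sources used here. As in the study's methods, the test was paired by replicate number (a block in the fit), and a probe set stayed only if its mean signal reached 100 in at least 1 group (19101 of 54613 non-control probe sets). Kept probe sets naming only 1 gene were averaged on the log2 scale to give that gene's value. Of the non-control probe sets, 41091 named 1 gene, 1801 several and 11721 none, by the platform annotation. Symbols came from RefSeq by Entrez number, and from the platform annotation where RefSeq had no match.

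The tests used the limma package (version 3.58.1, with lmFit and eBayes, two-sided, under R 4.3.3) on all 10115 genes, all 19101 probe sets and 10592 pairs of probe sets of the same gene, with Benjamini-Hochberg adjustment and a threshold of 0.05. The fit had 2 residual and 4.12 prior degrees of freedom for genes. Promoters were read with pandas 2.3.3 and plots drawn with matplotlib 3.10.9, both under Python 3.11.15. The workflow was tested on simulated data.

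The members and lists were chosen with earlier results of these data known. Every member is named, and of each pathway list the 3 genes with the largest changes past the threshold, while genes outside this rule are said to have been named after their values were seen. Alternatives covered the block, the filter, normalization, an added constant of 16, the variance trend, probe set choice, left-out replicates, a stricter threshold and the methods' t-test.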

Additional observations from a re-analysis of the deposited data

How the results depend on the processing

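Counts of changed member genes (5), member probe sets (10), unequal member pairs (12) and changed pathway genes (33) held within 1.5 times except as follows. Without _x_at and _s_at probe sets, 3 member genes and 3 member probe sets of 5 each passed. Over the whole series 57.9% of genes and 56.6% of probe sets did. LGALS8, LGALS3 (the member that rose), MGAT1 and MGAT2 then had no value, and no member pair could be tested. By the methods' t-test with Benjamini-Hochberg adjustment, 3 member genes, 6 member probe sets and 11 pathway genes passed. Fewer passed over the whole series too, 23.9% of genes and 17.1% of probe sets, against 58.7% and 55.1% by limma. Of the member pairs 0 passed by that test, against 11 at an unadjusted p under 0.05 and 12 by limma. A share over all pairs was not taken for the t-test. CD44 turned from 0.31 to -0.019 with the highest probe set per gene. Leaving out each replicate gave 5 to 6 member genes, 10 to 12 probe sets, 9 to 14 pairs and 27 to 36 pathway genes. Over the whole series 42.5% to 63.9% of genes and 38.5% to 61.1% of probe sets then passed. At a threshold of 0.01 the counts were 5, 10, 9 and 25, beside 41.4% of all genes and 37% of all probe sets.

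Whether the replicate numbers pair the arrays cannot be settled from the values. Deviations from the group means correlated at -0.241, 0.241 and 0.110 for same-numbered arrays, and at -0.414 to 0.292 for other array pairs. With 3 arrays per group such deviations depend on each other, so these correlations neither show nor exclude pairing. Without the replicate block, 6 member genes, 12 probe sets, 12 pairs and 35 pathway genes passed. So did 61.9% of all genes and 57.9% of all probe sets. Over single member genes, 104 comparisons with an alternative stayed on the same side of the threshold (in 2 of them MGAT2, which was not called, turned sign, to -0.0020 with quantile normalization and -0.083 with the highest probe set per gene), 4 gained the call and 3 lost it, and 0 called values reversed. With 3 arrays per group, the median SE of a gene's log2 fold change was 0.056, and the 7 dim member probe sets, the one of LGALS9 among them, had no test at the filter used.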

Other observations

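A non-coding antisense RNA of the LGALS8 locus, LGALS8-AS1, had a probe set of its own (234611_at). It lay below the limit at 5.62 in untreated and 5.56 in TGFβ arrays, with a log2 fold change of -0.055 when the filter was left out (limma adjusted p = 0.801). The pseudogene MGAT4EP read 3.49 and 3.56.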
